A study of Homo sapiens with 4 samples.

Results

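The mRNAs described here encode the initiation factors that choose the start codon and join the ribosomal subunits, together with the factors eIF5A and eIF6 that bear related names. They were taken by symbol as EIF1, EIF1AX, EIF1B, EIF5, EIF5A, EIF5B and EIF6, and 6 of these 7 genes had the required 10 counts summed over the libraries, of 9865 such genes among the 19948 of the table. The seventh, EIF5B, had 2 counts. The cells were HEK293T, a human embryonic kidney line, given cycloheximide at 100 ug/mL for 10 min, an inhibitor that holds elongating ribosomes on mRNA. Their lysate was spun through sucrose of 10% to 50%, and RNA with a cap and a poly(A) tail was read directly, without conversion to cDNA, on a nanopore device from 4 pools of fractions. The pools were free, monosome, light polysome and heavy polysome, with 1 library each from the same treated line and no other treatment, genotype or time named in the labels. Fractions further down such a gradient hold mRNAs with more ribosomes. With 1 library per pool there was no replicate, so no p-value is given, and all intervals are 95% counting intervals. They do not cover variation between cultures or gradients.

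A scanning small subunit carries eIF1 and eIF1A, which keep it open and keep initiation strict until a start codon is met. EIF1 and EIF1B code for closely related forms of eIF1, and EIF1AX for the X-linked form of eIF1A. When the start codon pairs with the initiator tRNA, eIF1 leaves and eIF5, which activates the GTPase of eIF2, lets the complex commit. The GTPase eIF5B then joins the large subunit. eIF5A, the protein that carries the amino acid hypusine, acts mainly in elongation and termination, and eIF6 binds the large subunit and keeps it from joining too early. In human cells eIF1 and eIF5 act in opposite directions on start-codon stringency, and the mRNA of eIF1 is known for a start codon in a weak context.

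That context is shown first, since it is what these factors read. A strong context has A or G 3 bases before the A of the start codon and G just after the codon, at position 4 counted from that A. The start codon is in capitals below, with 9 bases before it and 3 after it, on the sense strand of the GENCODE release 29 transcript chosen for each gene.

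EIF1: tcgtatcgtATGtcc
EIF1B: tagtatcgcATGtcc
EIF1AX: gccaccgccATGccc
EIF5: taagccaaaATGtct
EIF5A: cctcttaaaATGgca
EIF6: cttggcctcATGgcg
EIF5B: tgacaagcaATGggg

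EIF1 and EIF1B lacked both features of a strong context, which 6.16% of 7343 tested genes with an annotated context also lacked. EIF5A and EIF5B had both features, as had 47.3% of those genes. EIF1AX and EIF5 had the purine alone, and EIF6 had the G alone. Upstream of the start codon, the chosen EIF5 and EIF6 transcripts each held 6 further ATG triplets, EIF5A held 3, EIF5B held 2 and the EIF1, EIF1B and EIF1AX transcripts held 0. Among tested genes with a coding length, 52.0% had at least 1. These counts depend on the annotated 5′ ends, and no read ends were examined.

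The title of the study names TOP mRNAs, whose cap is followed by C and a run of pyrimidines. The windows below show the annotated RefSeq start sites (GRCh38.p14) of the 3 genes coding for eIF1 and eIF1A, whose patterns are compared most closely, with the bases from the first transcribed one on in capitals. They are EIF1 at chr17:41688870-41688899 on the plus strand, EIF1B at chr3:40309692-40309721 on the plus strand and EIF1AX at chrX:20141824-20141853 on the minus strand.

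EIF1: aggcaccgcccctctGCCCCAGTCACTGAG
EIF1B: tcggccattttgtgcGAGAAGCCGCAGCGC
EIF1AX: gcaaagagtcgcggcGCCATTTGCTGCCGC

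None of these annotated sites, nor any listed for EIF5, EIF5A, EIF5B and EIF6, started with C followed by 4 or more bases that were C or T on the sense strand, a start found at 4.07% of 35116 RefSeq start sites. Where transcription starts in these cells was not analysed here.

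The libraries held 355509 counts for free, 1329334 for monosome, 1499401 for light polysome and 1564531 for heavy polysome. The free library was the shallowest. A gene without a count was limited to 3 counts, which stood for 1.92 CPM (a count divided by its library total and rescaled) in the heavy polysome library and 8.44 CPM in the free library. Of the HEK293T markers examined, VIM had 850 counts and NEFM 40, while PAX2 had 6 and LHX1 had 2. The blood markers PTPRC, CD3E and HBA1 had 0, and the liver and fibroblast markers ALB, APOA1, COL1A1 and COL1A2 had at most 3.

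EIF1 (chr17:41688885-41692668), with a coding length of 339 nucleotides, was highest in the light polysomes. Its counts were 341 in free, 730 in monosome, 4911 in light polysome and 3014 in heavy polysome RNA. As CPM these were 959 (860 to 1067), 549 (510 to 590), 3275 (3184 to 3368) and 1926 (1858 to 1996). No neighbouring levels in this order overlapped within their intervals, and the lowest level was in the monosome pool, below the free pool. Since each value is a share of its library, less of a factor's mRNA in a pool and more of other mRNAs there cannot be told apart.

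EIF1B (chr3:40309684-40312424), the paralogue of the same coding length, was also highest in the light polysomes. Its counts were 24 in free, 79 in monosome, 422 in light polysome and 143 in heavy polysome, which gave 67.5 (43.3 to 100), 59.4 (47.0 to 74.1), 281 (255 to 310) and 91.4 (77.0 to 108) CPM. Its light polysome level stood apart from all others. The heavy polysome level stood apart from the monosome level, and the wide interval of the free level overlapped both.

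EIF1AX (chrX:20124518-20141844) likewise had its highest level in the light polysomes, but little in the free pool. It had 10, 213, 761 and 666 counts from free to heavy polysome, or 28.1 (13.5 to 51.7), 160 (139 to 183), 508 (472 to 545) and 426 (394 to 459) CPM. All 4 levels stood apart from their neighbours.

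EIF5 (chr14:103333544-103345025), the longest of the 6 at 1293 coding nucleotides, was concentrated in the heavy polysomes. It had 2, 24, 77 and 408 counts from free to heavy polysome, or 5.63 (0.681 to 20.3), 18.1 (11.6 to 26.9), 51.4 (40.5 to 64.2) and 261 (236 to 287) CPM. Each pool had a higher level than the one before it, and the intervals overlapped only between monosome and free.

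EIF5A (chr17:7306999-7312463) was low in the free and monosome pools and high in both polysome pools. Its counts were 72, 326, 3001 and 3591 from free to heavy polysome, or 203 (158 to 255), 245 (219 to 273), 2001 (1930 to 2074) and 2295 (2221 to 2372) CPM. Monosome and free overlapped within their intervals, while the polysome levels stood apart from them and from each other.

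EIF6 (chr20:35278911-35284985) was barely detected, with 0, 2, 7 and 21 counts from free to heavy polysome and 13.4 CPM (8.31 to 20.5) at its highest, in the heavy polysomes. Its heavy polysome level stood apart from its monosome level of 1.505 CPM (0.182 to 5.43), while neighbouring levels in the order of the pools overlapped within their intervals. EIF5B (chr2:99337353-99401326) had 1 count in the monosome library and 1 in the light polysome library, and it was not tested further.

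**Figure D1:**
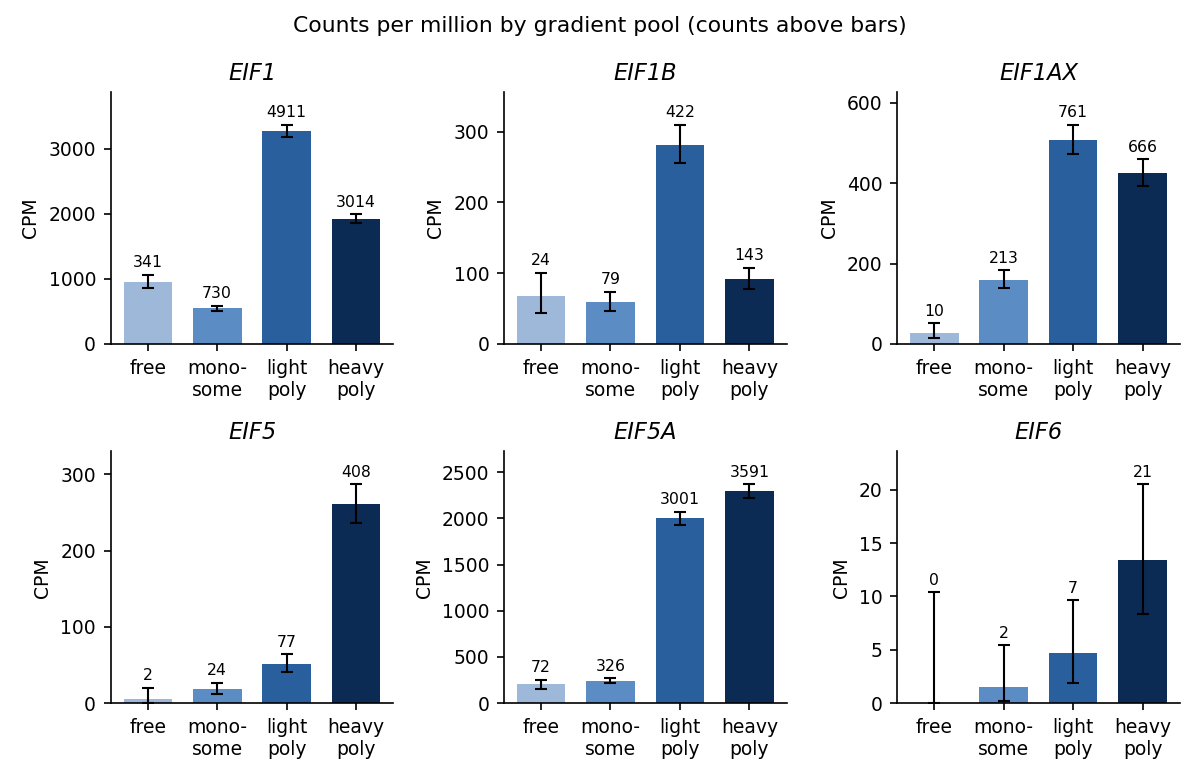
CPM of the 6 factor mRNAs in the free, monosome, light polysome and heavy polysome libraries (1 library each); bars are CPM, whiskers 95% Poisson counting intervals, and the numbers above the bars are counts. EIF1, EIF1B and EIF1AX peak in the light polysome library with 4911, 422 and 761 counts, while EIF5 and EIF5A peak in the heavy polysome library with 408 and 3591.

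How far the counting separates these genes from others differed between them. The EIF5A counts were nearly matched, pool by pool, by those of EIF5AL1 (chr10:79512601-79516440), an intronless relative: EIF5AL1 had 65, 310, 2893 and 3492 counts, which was 47.4%, 48.7%, 49.1% and 49.3% of the sum of both. Their coding sequences, of 462 nucleotides each, were 98.9% identical, with 5 differences that are, counted from the A of the start codon and with the EIF5A base first, C12T, C106T, C123G, A133G and G326C. No source used here says how reads that align to both were counted, so the EIF5A level is uncertain. Summing both genes changed none of its calls, but with such even shares in every pool the sum could hardly move a ratio. The sum therefore does not show what part shared reads had in the EIF5A counts. EIF1 and EIF1B were 82.0% identical over their coding sequences, and their counts did not run in parallel. In the annotation, EIF5B shared 852 exonic bases with REV1 on the opposite strand, EIF6 shared 284 with AL121753.1 on its own strand and EIF5A shared 241 with GPS2 on the opposite strand. EIF1B shared 15 with EIF1B-AS1, and EIF1, EIF1AX and EIF5 shared none. The part of these overlaps in the low counts of EIF5B and EIF6 was not tested.

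Set out as percentages of each gene's own CPM summed over the pools, the factors were spread widely along the gradient. The light polysome pool held 56.3% of EIF1B, 48.8% of EIF1, 45.3% of EIF1AX and 42.2% of EIF5A, but 23.8% of EIF6 and 15.3% of EIF5, around a median of 29.7% over all 7527 tested genes. The heavy polysome pool held 77.7% of EIF5, 68.5% of EIF6 and 48.4% of EIF5A, against 38.0% of EIF1AX, 28.7% of EIF1 and 18.3% of EIF1B, around a median of 47.8%. The free pool held 14.3% of EIF1 and 13.5% of EIF1B, above the upper quartile of 8.52% of tested genes. EIF5A had 4.27% there, EIF1AX 2.51% and EIF5 1.68%. These percentages, and the pool in which a gene was highest, rest on library totals and depend on that scale. The factors of TMM scaling were 0.377 for free, 0.773 for monosome, 1.54 for light polysome and 2.23 for heavy polysome. Dividing by them would raise every free level and lower every polysome level. Percentages and highest pools were not worked out on that scale.

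**Figure D2:**
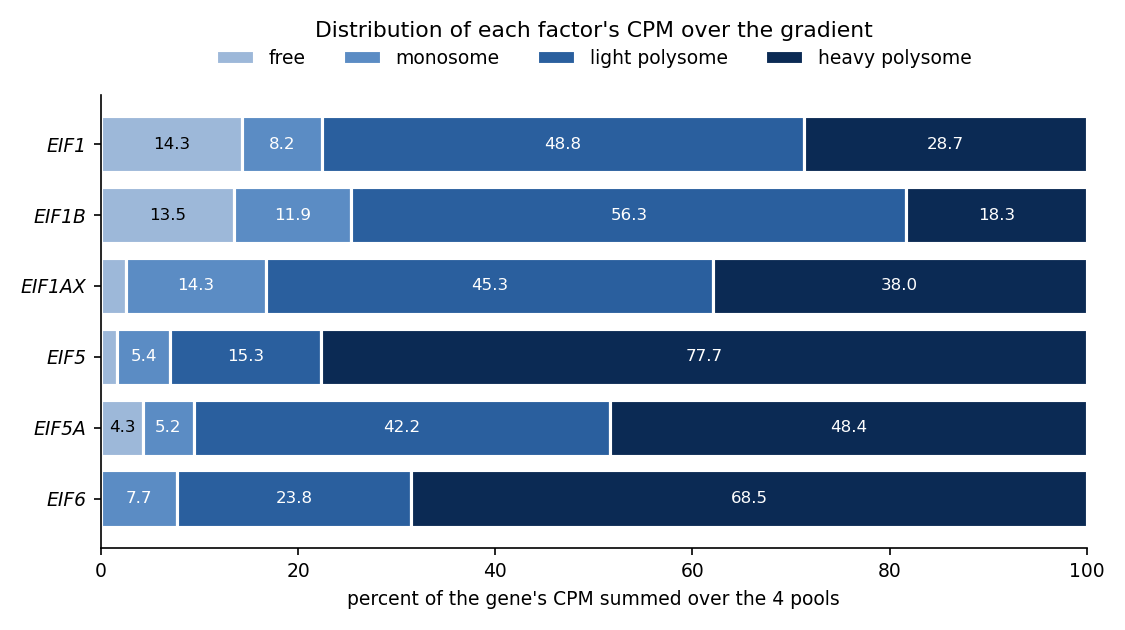
Percent of each factor's CPM found in each of the 4 pools, from free on the left to heavy polysome on the right; each bar adds up to the gene's CPM over all pools. The heavy polysome segment widens from 18.3% for EIF1B to 77.7% for EIF5.

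Heavy polysome was first set against free RNA, the far ends of the gradient. The values are log2 ratios of shares relative to the median gene, whose share was 8.26-fold higher in the heavy polysomes (log2 3.05), and a gene was called when it lay at least 2-fold from the median gene and its interval excluded it. Of the 7527 tested genes, 2348 had no count in free. With genes without a count at a floor of 3 counts, the median gene lay at log2 2.18 instead. EIF5 was called higher, and EIF1 and EIF1B were called lower. Over all 7527 genes 6.36% were called higher and 15.3% lower, so 1 and 2 of 6 factors are not far from those shares. EIF5 lay at 2.17 (0.63 to 5.54), with 408 counts in heavy polysome and 2 in free. EIF1 lay at -2.04 (-2.20 to -1.87) and EIF1B at -2.63 (-3.24 to -1.92). On library totals, without setting the median gene to 0, both directions turned, to 1.004 and 0.41, and EIF1 was then called higher. At the floor of 3 counts EIF1 lay at -1.18 and EIF1B at -1.75, outside these intervals but still called lower. EIF1AX at 0.80 (-0.01 to 1.94) and EIF5A at 0.45 (0.12 to 0.81) were not called, but most alternatives called EIF1AX higher. It lay at 1.29 with TMM scaling, 1.16 with DESeq2's size factors, 3.85 on library totals and 1.74 at the floor. A minimum of 10 counts, no minimum and adding 1 to each count also called EIF1AX higher. EIF5A was called higher with no minimum count at 1.38, at the floor at 1.32 and on library totals at 3.49. EIF6 had no count in free and lay at 0.24 relative to the median gene, from -2.80 with no upper bound, and was not called. Without setting the median gene to 0, its 21 counts in heavy polysome gave a share 1.59-fold that of a floor of 3 counts in free. This value leaves out the counting error of the 21 counts. The CPM intervals overlapped, at 8.31 to 20.5 in heavy polysome and up to 10.4 in free.

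Monosome against free RNA set mRNAs with a single ribosome against RNA outside the ribosome peaks. The eIF1 paralogues and eIF1A differed here: EIF1 and EIF1B were called lower and EIF1AX higher. Over all genes 4.57% were called lower and 5.13% higher, against 2 and 1 of the 6 factors. EIF1 lay at -2.07 (-2.26 to -1.88), with 549 CPM in monosome and 959 in free, and EIF1B at -1.47 (-2.13 to -0.73). EIF1AX lay at 1.18 (0.34 to 2.32), with 160 CPM in monosome and 28.1 in free, which rests on 10 counts in free. EIF5A lay at -0.999 (-1.36 to -0.60), at the edge of a call and called lower at -1.12 with a minimum of 100 counts, and EIF5 at 0.12 (-1.59 to 3.54) with 2 counts in free. On library totals EIF1 lay at -0.81 and EIF1B at -0.20, the same direction without a call. With genes without a count at a floor of 3 counts, EIF1 lay at -1.49, still called lower, and EIF1B lay at -0.87 and was not called. A share lower in monosome than in free was found for 171 of the 1095 tested genes with 10 or more counts in free (15.6%). Of the 1095, 19 (1.74%) were also highest in the light polysomes, a group counted after the values were seen that includes both EIF1 and EIF1B. The free and monosome levels of EIF1B overlapped within their intervals, so its place in this group is within counting error.

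Light polysome against monosome set mRNAs with several ribosomes against those with a single one. All 6 factors lay above the median gene, and EIF5A, EIF1 and EIF1B were called higher, or 3 of 6 beside 14.9% of all genes. None was called lower, beside 16.3% of all genes. EIF5A lay at 2.04 (1.88 to 2.21), with 2001 CPM in light polysome and 245 in monosome. EIF1 lay at 1.59 (1.48 to 1.71) and EIF1B at 1.25 (0.91 to 1.63). These 3 calls were also made under each alternative tried. EIF1AX at 0.68 (0.46 to 0.91) lay above the median gene by less than 2-fold, and the intervals of EIF5 at 0.50 (-0.15 to 1.25) and EIF6 at 0.43 (-1.74 to 3.95) included it. On library totals EIF1AX and EIF5 were called higher, at 1.66 and 1.49.

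Heavy polysome against light polysome set the most loaded mRNAs against those of intermediate load. EIF5 was called higher, EIF1 and EIF1B were called lower, and the others were not called, beside 26% of all genes called higher and 28.3% lower. EIF5 lay at 1.75 (1.40 to 2.12), with 261 CPM in heavy polysome and 51.4 in light polysome. EIF1B lay at -2.21 (-2.50 to -1.94) and EIF1 at -1.36 (-1.42 to -1.29), and these intervals did not overlap although both coding sequences have 339 nucleotides. EIF1 was not called on library totals, where it lay at -0.77. EIF1AX lay at -0.84 (-0.997 to -0.69) and EIF5A at -0.39 (-0.46 to -0.32), both below the median gene by less than 2-fold, although on library totals EIF5A lay at 0.20. EIF6, with 21 counts in heavy and 7 in light polysome, lay at 0.87 (-0.36 to 2.41) and was called higher on library totals, at 1.46. From lowest to highest the order was EIF1B, EIF1, EIF1AX, EIF5A, EIF6 and EIF5, in which EIF5A and EIF6, and EIF6 and EIF5, overlapped within their intervals.

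**Figure D3:**
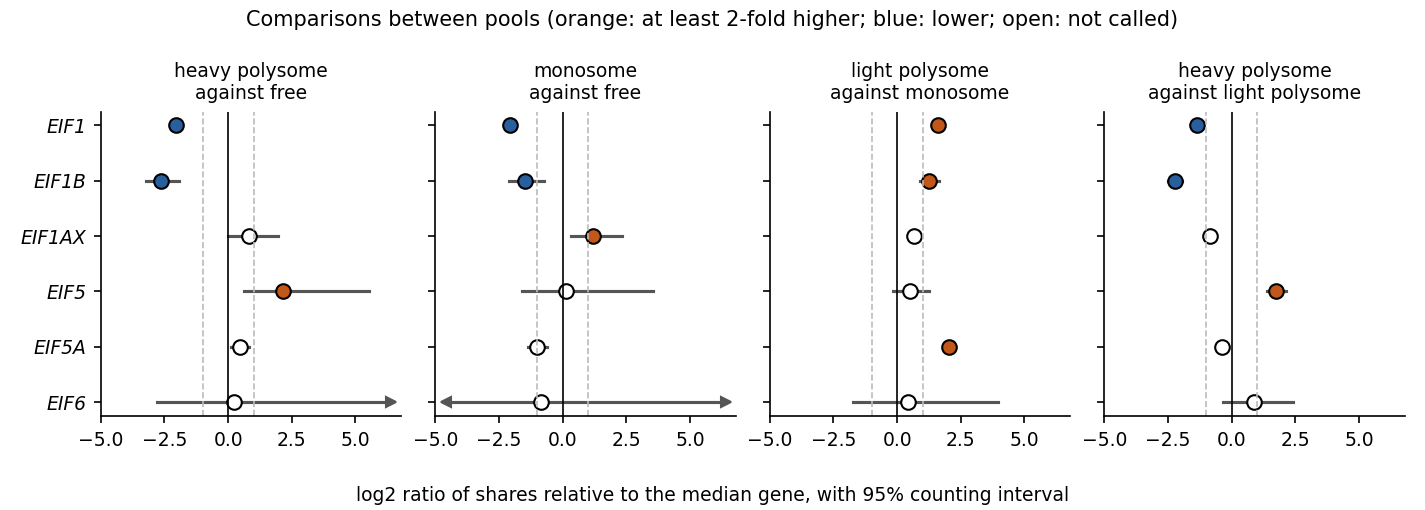
Log2 ratio of shares relative to the median gene for the 6 factors in the 4 comparisons between pools; points are the ratios, lines 95% counting intervals (arrows run past the axis), dashed lines mark 2-fold. EIF1 and EIF1B lie left of the median gene in heavy polysome against free at -2.04 and -2.63, and EIF5 lies right of it at 2.17.

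The balance between the eIF1 paralogues changed along the gradient. EIF1B made up 6.58% of the counts of both genes in free (4.26 to 9.63, Clopper-Pearson), 9.77% in monosome (7.81 to 12.02), 7.91% in light polysome (7.20 to 8.67) and 4.53% in heavy polysome RNA (3.83 to 5.31). The heavy polysome share lay below the intervals of the light polysome and monosome shares, while the interval of the free share overlapped all the others. EIF1AX made up 2.85% of the counts of EIF1AX and EIF1 in free (1.37 to 5.18), 22.6% in monosome (20.0 to 25.4), 13.4% in light polysome (12.5 to 14.3) and 18.1% in heavy polysome (16.9 to 19.4), and none of these intervals overlapped. EIF5 made up 11.9% of the counts of EIF5 and EIF1 in heavy polysome (10.9 to 13.1), against 1.54% in light polysome (1.22 to 1.93).

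Coding length limits how many ribosomes an mRNA can hold, so each factor was also ranked among the 200 tested genes nearest to it in coding length. The mean gradient position gives the pools, in gradient order, the weights 0, 1, 2 and 3 and averages them by a gene's CPM, and its median over tested genes was 2.25. EIF5 lay at 2.69, higher than 94.5% of tested genes, EIF6 at 2.61, EIF5A at 2.35, EIF1AX at 2.19, EIF1 at 1.92 and EIF1B at 1.79, higher than 16.9%. EIF1AX, at 43.6% of tested genes, moved to 52.9% with TMM scaling, and EIF1, higher than 23.6%, moved to 37.7% without the free library. Among its own length neighbours each factor lay above their median position. Only 9 of 200 genes of 435 to 489 nucleotides, EIF5AL1 among them, lay further toward the heavy end than EIF5A, and 22 of 200 did so for EIF1AX, 18 of 200 for EIF5 and 22 of 200 for EIF6. For EIF1 and EIF1B it was 42 and 72 of the genes of 303 to 375 nucleotides, whose median position was 1.70. These neighbours were not matched for abundance, and the ranks are a description without a test.

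Among short mRNAs a light polysome peak was common. Of the 200 genes nearest EIF1 in coding length, 8 (4%) had their highest CPM in the heavy polysomes and 137 (68.5%) in the light polysomes, against 61.3% and 30.0% of all tested genes. The step from monosome to light polysome was larger than in most of them: 192 of the 200 lay below EIF1 in light polysome against monosome, 185 of 200 below EIF1B and 199 of 200 below EIF5A, with neighbour medians of -0.22, -0.22 and -0.04. The 1 neighbour above EIF5A was EIF5AL1, at 2.06. In monosome against free, 193 of the 200 lay above EIF1 and 181 above EIF1B, while 20 of 200 lay above EIF1AX. For heavy polysome against free, 117 of 200 lay below EIF1 and 83 of 200 below EIF1B, with neighbour medians of -2.34 and -2.32. The lower calls of both were thus near the middle for genes of their length. There 5 of 200 lay above EIF1AX, 15 above EIF5A and 19 above EIF5, each among its own neighbours. In heavy polysome against light polysome, 155 of 200 lay below EIF1 and 81 of 200 below EIF1B. A heavy polysome peak was common at the length of EIF5, with 152 of its 200 nearest genes (76%). In heavy polysome against light polysome 41 of those 200 lay above EIF5, with a neighbour median of 0.79.

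**Figure D4:**
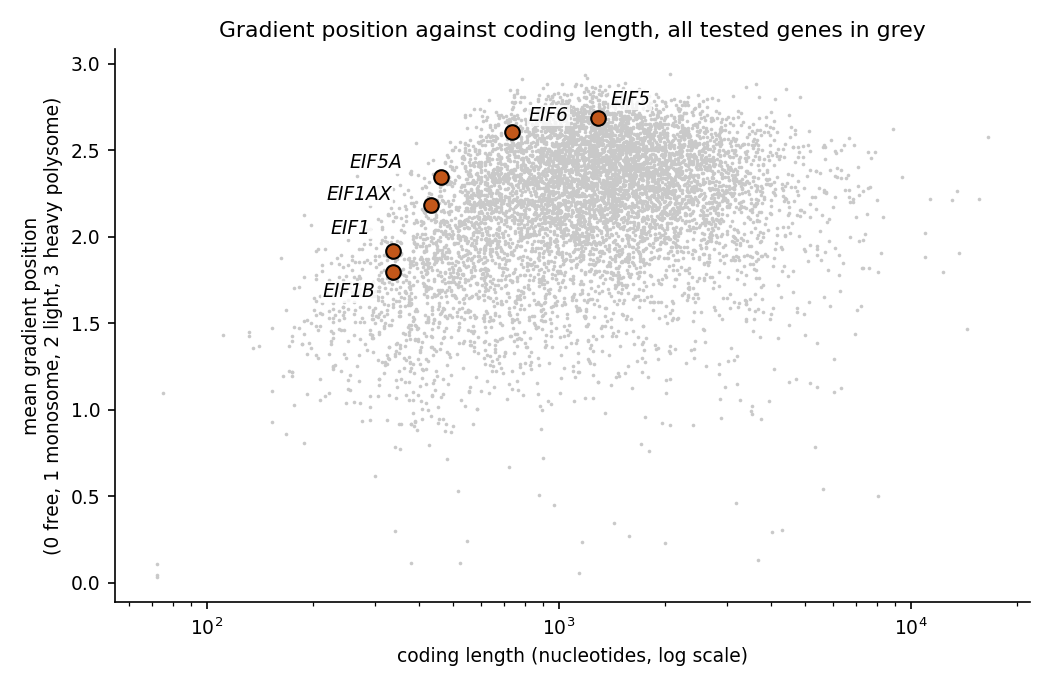
Mean gradient position (0 for free, 1 for monosome, 2 for light polysome, 3 for heavy polysome) against coding length in nucleotides on a log axis, with all tested genes in grey and the 6 factors in orange. EIF5A at 2.35 and EIF1AX at 2.19 lie among the higher genes of their length, and EIF5 lies at 2.69.

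The genes whose percentages over the 4 pools were most like each factor were found among 4338 other genes with at least 100 counts, by the total variation distance, which is 0 for equal distributions and 100 for separate ones. The nearest to EIF1 was TXNL4B at 2.54, with ALG14 and TMUB2 next, and the nearest to EIF1B was OXLD1 at 1.93, followed by RNASEH2C and HCFC1R1. SLC35B4 lay at 0.35 from EIF1AX, ahead of MSRB2 and NQO2. PSAT1, an enzyme of serine synthesis, lay at 0.46 from EIF5, ahead of GALNT2 and GOLM1. EIF5AL1 at 0.38 was the nearest to EIF5A, and POLRMT and NEK6 followed at 1.49 and 1.56. For EIF6, with 30 counts, UBQLN4, GTF3C5 and PFKL were nearest, at up to 0.97. These distances rest on 4 libraries, and all of these genes but RNASEH2C and EIF5AL1 had under 10 counts in free RNA.

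Other genes of the initiation pathway were placed on the same scale. In heavy polysome against light polysome, the 3 subunits of eIF2, which brings the initiator tRNA, were all called higher: EIF2S1 lay at 2.29 (1.84 to 2.81), EIF2S2 at 1.49 (1.19 to 1.81) and EIF2S3 at 1.07 (0.84 to 1.31). EIF2D and DENR, which code for factors of noncanonical initiation and recycling, were called lower at -2.09 (-2.53 to -1.69) and -1.10 (-1.33 to -0.87), while MCTS1, the partner of DENR, at -0.33 (0.26 on library totals) and EIF2A at 0.78 were not called. Both genes of the eIF5-mimic proteins, which resemble the carboxyl-terminal part of eIF5, were called higher, BZW1 at 1.97 (1.62 to 2.35) and BZW2 at 1.73 (1.30 to 2.20), beside EIF5 at 1.75. Of 13 eIF3 subunits 6 were called higher and 0 lower, beside 26% and 28.3% of all genes, with a median of 0.92 and EIF3I highest at 2.28. Of 8 eIF4 factors 2 were called higher, EIF4A1 and EIF4H, and 2 lower, EIF4E and EIF4G3, which is near those shares of all genes. The median of the 6 factors tested here was -0.62, where that of all tested genes is 0 by construction. The lists were not matched for coding length. For EIF3A, EIF3C, EIF3E, EIF3F, EIF3G, EIF3H, EIF3L and EIF3M, 136 to 193 of 200 length neighbours had a mean gradient position further toward the heavy end. For EIF3B, EIF3D, EIF3I, EIF3J and EIF3K it was 3 to 73 of 200.

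In light polysome against monosome the lists stood differently. Of the eIF3 subunits 7 of 13 were called lower and none higher, beside 16.3% and 14.9% of all genes, with a median of -1.19, and EIF3E lay at -2.83 (-3.19 to -2.50). The eIF2 subunit EIF2S3 was called lower at -1.46 (-1.74 to -1.19), with EIF2S1 at 0.21 and EIF2S2 at -0.55 not called. EIF2A was also called lower, at -3.20 (-3.94 to -2.55). Of the eIF5-mimic genes, BZW1 was called lower at -1.18 (-1.66 to -0.70) and BZW2 at 0.01 was not called, beside EIF5 at 0.50. The 6 factors had a median of 0.96 there, beside 3 of 6 called higher. In heavy polysome against free, EIF2S1, EIF2S2 and EIF2S3 were called higher at 1.36, 1.90 and 1.75, with 3 to 5 counts in free. EIF2A at -3.32, EIF2D at -2.03 and MCTS1 at -1.23 were called lower there, and DENR at -0.15 was not called. Over all genes 6.36% were called higher and 15.3% lower.

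**Figure D5:**
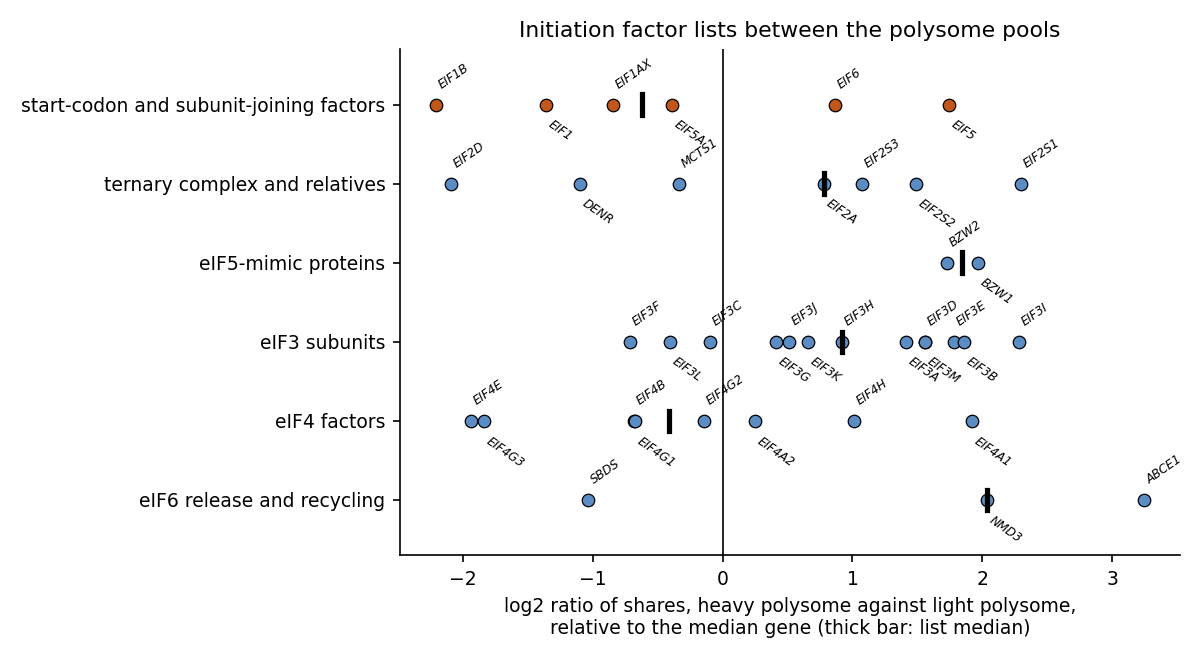
Log2 ratio of shares in heavy polysome against light polysome, relative to the median gene, for the 6 factors (orange) and other listed genes of initiation (blue); each point is a gene and the thick bar the list's median. EIF1B at -2.21 and EIF5 at 1.75 mark the ends of the 6 factors, and the median of the eIF3 subunits lies at 0.92.

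Genes whose products act on eIF5A and eIF6 were less well measured. DOHH, the hydroxylase that completes hypusine, had 2, 8, 166 and 147 counts from free to heavy polysome and lay at 3.13 (2.21 to 4.45) in light polysome against monosome, where it was called higher. DHPS, which starts that modification, had 0 counts in every library and shared 1157 exonic bases with AC010422.8 on its own strand. SBDS, which with the GTPase EFL1 releases eIF6, had 6, 82, 208 and 159 counts and was called lower in heavy polysome against light polysome at -1.04 (-1.35 to -0.73), and EFL1 had 9 counts in all. ABCE1, which splits ribosomes after termination, had 171 counts in heavy polysome and 11 in light polysome and was called higher there at 3.25 (2.43 to 4.34). NMD3, an export adaptor of the large subunit, was called higher at 2.03 (1.12 to 3.22). Of the related copies, EIF5A2 had 0, 18, 29 and 21 counts from free to heavy polysome and was called lower in heavy polysome against light polysome at -1.11 (-2.001 to -0.26), and EIF1AD, whose product is named for its eIF1A-like domain, was called lower at -1.26 (-1.76 to -0.78).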

How the data were processed

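The authors' deposited table holds raw counts per gene for 4 libraries, 1 per gradient pool. The tools listed in the submitters' processing notes are minimap2 2.15 and Subread 1.6.2, with its counter featureCounts, and the listed build is hg38. No source used here gives the annotation release, the use of strand or the treatment of reads with several alignments. The libraries held 355509 to 1564531 counts. The members and gene lists were chosen with earlier results of these data known.

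Genes with 30 or more summed counts (7527) were compared by the log2 ratio of shares after adding 0.5 to each count, relative to the median of these genes. Intervals are exact Poisson (CPM) or conditional binomial (Clopper-Pearson) at 95% and cover counting error only. With 1 library per pool, edgeR's quasi-likelihood test could not be fitted. The floor for a gene without a count is 3 counts in that library. The calls were tested on simulated data with counting error only, which held no variation between libraries and did not test the choice of scale. Symbols matched GENCODE release 29 (same build) for 19670 genes, and 7450 tested genes had a coding length. For each gene 1 transcript was chosen by APPRIS level, CCDS tag and length. Named genes were the members, the listed genes and the 3 nearest patterns per member. Alternatives were minimum counts of 10, 100 or none, adding 1, library totals, TMM (edgeR 4.0.16), DESeq2 1.42.0 size factors, thinning to the shallowest library, other position weights and leaving out the free library. Software was scipy 1.17.1, pandas 2.3.3, numpy 2.4.6, matplotlib 3.10.9, Python 3.11.15 and R 4.3.3.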

Additional observations from a re-analysis of the deposited data

How the results depend on the processing

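The largest dependence was on the scale. On library totals, without the median gene as zero, 5 of 6 factors were called in heavy polysome against free and 1 in monosome against free. In light polysome against monosome it was 5, and each of these numbers was 3 relative to the median gene. The lower calls of EIF1 and EIF1B in heavy polysome against free turned to 1.004, called higher, and 0.41, not called. In heavy polysome against free, 5 factors were called with no minimum count and 5 with genes without a count at a floor of 3, a setting added after the data were seen. Of 44 alternative counts of factors called, or above the median position, 39 stayed within 1.5 times, by number alone and not by gene or direction. In heavy polysome against light polysome, for example, 3 were called on library totals too, but as 2 higher and 1 lower, not 1 higher and 2 lower. Of 236 alternative member values, 21 changed a call, 11 of them on library totals. The 236 values and 44 counts include the summing of EIF5A with EIF5AL1, which left the values of all other factors as they were. With genes without a count at that floor, EIF1B in monosome against free lay at -0.87 and was not called. Summing EIF5A with EIF5AL1, also added after the data were seen, changed no call. As their counts were nearly equal in every pool, it could hardly have done so. Depth limits the free library most, where EIF5 had 2 counts and EIF6 had 0. No paired analysis was possible because each pool has 1 library.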
